A study of Mus musculus with 64 samples.

Results

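Slc26a4, Gjb2, Aqp5, Aqp1, Car12 and Esrrb are 6 genes tied to the making of endolymph, the fluid inside the membranous inner ear. Every probe set annotated to 1 of these symbols alone was taken, which gave 7 probe sets of the 22626 on the array, and 6 genes of the 12393 that had a probe set with 1 symbol. Esrrb had 2 probe sets and each of the other genes had 1. In RefSeq's annotation of build GRCm38.p6 Slc26a4 spans chr12:31519814-31560055, Gjb2 chr14:57098602-57104702, Aqp5 chr15:99591028-99594829, Aqp1 chr6:55336299-55348555, Car12 chr9:66712296-66766845 and Esrrb chr12:86361117-86521628.

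RNA was measured on 64 Affymetrix arrays in 32 groups of 2 arrays, each array from a pool of tissues dissected from CBA/J mouse embryos, with the 2 pools of a group taken from different litters. The labels name no genetic change and no treatment. The 29 inner ear groups were the otic placode at E9, the otic vesicle at E9.5 and E10, the cochlea at E10.5, E11, E11.5, E12, E12.5, E13, E13.5, E14, E14.5 and E15, the vestibular organ at E10.5, E11, E11.5 and E12, and, at each stage from E12.5 to E15, the saccule and the utricle with its 3 ampullae. Non-inner ear tissue dissected from around the ear formed 3 further groups, at E9, pooled from E9.5 to E10.5 and pooled from E11 to E15. Dispase, a protease that frees epithelium from the tissue beneath it, was applied for 8 to 10 minutes up to E10.5 and for 20 to 25 minutes from E11, so E10.5 and E11 differ in age and in dispase time together. The endolymphatic duct was left out of the vestibular dissections, per the labels' protocols, so these arrays do not sample it. Each array is a mixture of cell types, in which fewer cells of a type and less RNA per cell cannot be told apart.

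Endolymph is rich in potassium and poor in sodium, and hair cells depend on its composition and voltage to respond to sound and movement. Secretory epithelial cells of the cochlear duct and the vestibular organs pump potassium into it, gap junctions link the supporting cells that return potassium, and anion exchangers, carbonic anhydrases and water channels set its acidity and volume. In mice the loss of Slc26a4 leads to a swollen inner ear and deafness, and changes in human SLC26A4 and GJB2 are among the common genetic causes of deafness.

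Values are probe set signals in the array's arbitrary units, computed by the authors and quantile normalized here, with a deposited minimum of 10 that 5.43 to 12.04% of the values of an array took. Array medians as deposited ranged from 64.7 to 107.6. A probe set was tested where at least 2 arrays reached the median of their array, as 15337 probe sets did. Of the 7 probe sets, 6 were tested, and the Esrrb probe set 1422986_at was not, since none of its 64 values reached the array median. Slc26a4 reached it on 44 arrays, Aqp5 on 31, Gjb2 and Car12 on 16 each, Esrrb (1436926_at) on 12 and Aqp1 on 2, so Aqp1 was tested on the strength of 2 arrays, 1 of the utricle at E14.5 and 1 of the saccule at E15. The 16 arrays of Gjb2 included all 12 of the cochlea from E12.5 on, and those of Car12 all 12 of the saccule. The 12 of Esrrb were 9 utricular and 3 late cochlear arrays. These 3 genes thus passed mostly through organs where they were high, and the p-values do not allow for that. The 7 epithelial markers summed to between 3823 and 8685 on the inner ear arrays and between 287.4 and 1024 in the surrounding tissue, and all 7 were called higher in the inner ear at each of the 3 ages.

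The upstream bases of Slc26a4, Gjb2 and Aqp5 are shown because these 3 genes had the largest fitted slopes over stages in the cochlea, on the log2 scale with 16 added to the signal. By the ratio of E15 to E10.5 signal alone, Esrrb would stand above Gjb2 and Slc26a4. Each run is the 250 bases before the start site in RefSeq, build GRCm38.p6, written 5′ to 3′ on the strand of the gene. The motif TATAAA, the motif AGGTCA and the motif GGGCGG were searched on both strands, and capitals mark where 1 of them or its reverse complement was found.
Slc26a4, chr12:31559985-31560234, minus strand: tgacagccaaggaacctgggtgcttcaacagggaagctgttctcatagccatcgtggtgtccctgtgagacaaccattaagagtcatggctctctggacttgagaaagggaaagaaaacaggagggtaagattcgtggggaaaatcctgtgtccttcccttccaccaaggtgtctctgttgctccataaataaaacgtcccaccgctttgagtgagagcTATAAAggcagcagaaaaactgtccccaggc
Gjb2, chr14:57104703-57104952, minus strand: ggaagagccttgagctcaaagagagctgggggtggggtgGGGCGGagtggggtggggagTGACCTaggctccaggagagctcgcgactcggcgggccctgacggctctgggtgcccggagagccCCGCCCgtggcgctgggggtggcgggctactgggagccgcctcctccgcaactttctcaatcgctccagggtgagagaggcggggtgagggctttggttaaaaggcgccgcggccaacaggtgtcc
Aqp5, chr15:99590778-99591027, plus strand: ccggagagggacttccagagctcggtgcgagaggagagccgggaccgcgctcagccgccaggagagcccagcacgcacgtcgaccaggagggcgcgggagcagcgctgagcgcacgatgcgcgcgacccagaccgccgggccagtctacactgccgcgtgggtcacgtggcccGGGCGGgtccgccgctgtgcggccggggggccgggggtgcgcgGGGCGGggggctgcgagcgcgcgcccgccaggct

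The 3 runs differed in make-up. Slc26a4 held TATAAA 31 bases before the start site, which 12.4% of the 32851 RefSeq promoters hold somewhere in the same window, and it held 4 CG pairs, against a median of 6 over all promoters. The RefSeq span of Slc26a4 reaches chr12:31560055, beyond the start site used. The end of its window nearest that site, with the TATAAA, thus lies inside the annotated gene. Gjb2 held 18 CG pairs, GGGCGG once on each strand (32.7% of promoters hold it) and AGGTCA on the opposite strand 191 bases before the start site (14.0% of promoters). Aqp5 held 38 CG pairs, more than 98.1% of all promoters, and GGGCGG 77 and 34 bases before its start site. TCAAGGTCA, the letters recognised by estrogen-related receptors such as Esrrb, is in 0.387% of promoters, and its shorter form AAGGTCA in 4.08%. Both contain AGGTCA, and neither was in the 250 bases of any of the 6 genes, of which Esrrb has 2 listed start sites. A match is a run of letters and not a binding site, and its absence says only that these letters are not in this window.

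Slc26a4 encodes pendrin, an exchanger of chloride, iodide and bicarbonate, and was the only one of the 6 genes with a signal above every surrounding tissue array on all cochlear, vestibular, saccular and utricular arrays. Its signal was 23.3 and 39.8 in the placode at E9, 32.5 and 34.1 in the vesicle at E9.5 and 39.3 and 46.4 in the vesicle at E10. In the cochlea it was 39.2 and 41.5 at E10.5, 101 and 102 at E11.5, 193 and 255 at E12.5, 479 and 388 at E13.5, 609 and 654 at E14.5 and 425 and 592 at E15. The cochlear trend, the fitted slope over stage multiplied by the days spanned, was a rise of 3.77 ± 0.16 log2 from E10.5 to E15 (SE, limma adjusted p = 4.37e-22), and cochlear signal at E15 was 12.4-fold that at E10.5. The rise was not steady to the end: both arrays at E14.5 lay above both at E15. In this trend 4 of the 6 probe sets tested were called, all upward, where 15.3% of all probe sets were called and 7.39% were called upward. A call here means an adjusted p under 0.05, by the Benjamini-Hochberg method over all 15337 probe sets, and a change of at least 1 log2.

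The vestibular organ held more Slc26a4 than the cochlea of the same age at 3 of the 4 stages. Its arrays read 80.2 and 68.5 at E10.5, 50.9 and 51.4 at E11, 161 and 163 at E11.5 and 192 and 241 at E12. Both vestibular arrays lay above both cochlear arrays at E10.5, E11.5 and E12, while at E11 the cochlear arrays, 54.5 and 44, lay on either side of them. The cochlea minus vestibular organ difference over the 4 stages was -0.51 ± 0.11 log2 (limma adjusted p = 0.000803), which is under the size needed for a call. None of the 6 probe sets was called between cochlea and vestibular organ, where 1.29% of all were. Of the 6, 2 had an unadjusted p under 0.05, and both also had an adjusted p under 0.05 with a change under 1 log2. Within the vestibular tissue Slc26a4 rose by 1.64 ± 0.21 log2 over its 4 stages (limma adjusted p = 3.91e-07), and it was 1 of 2 probe sets called in that trend, both upward, against 4.11% of all called and 2.16% called upward.

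After E12.5 Slc26a4 followed different courses in the saccule and the utricle, and at E15 it was highest in the saccule. The saccule read 119 and 164 at E12.5, 294 and 266 at E13.5 and 717 and 718 at E15, the highest pair of all 32 groups, and lay apart from the next group. The utricle with its ampullae was already at 287 and 482 at E12.5 and read 437 and 541 at E13.5 and 620 and 623 at E15. The saccular trend was a rise of 2.23 ± 0.19 log2 (limma adjusted p = 3.72e-12), and the utricular trend was 0.82 ± 0.19 log2 (limma adjusted p = 0.000934), under the size needed for a call. The saccular trend exceeded the utricular one by 1.41 log2, a difference that was itself called (limma adjusted p = 0.00097), as 3 of the 6 probe sets and 1.93% of all were between these organs. The cochlear trend from E12.5 to E15 minus the utricular one was 0.54 log2 (limma adjusted p = 0.223). Minus the saccular one it was -0.88 log2 (limma adjusted p = 0.0278), and neither difference was called. Averaged over E12.5 to E15, saccule minus utricle was -0.64 ± 0.09 log2 (limma adjusted p = 4.36e-07), cochlea minus saccule 0.42 ± 0.09 and cochlea minus utricle -0.22 ± 0.09, none of them large enough for a call. Without 1 array, replicate 2 of the utricle at E12.5, the utricular trend was 1.08 log2 and was called.

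**Figure D1:**
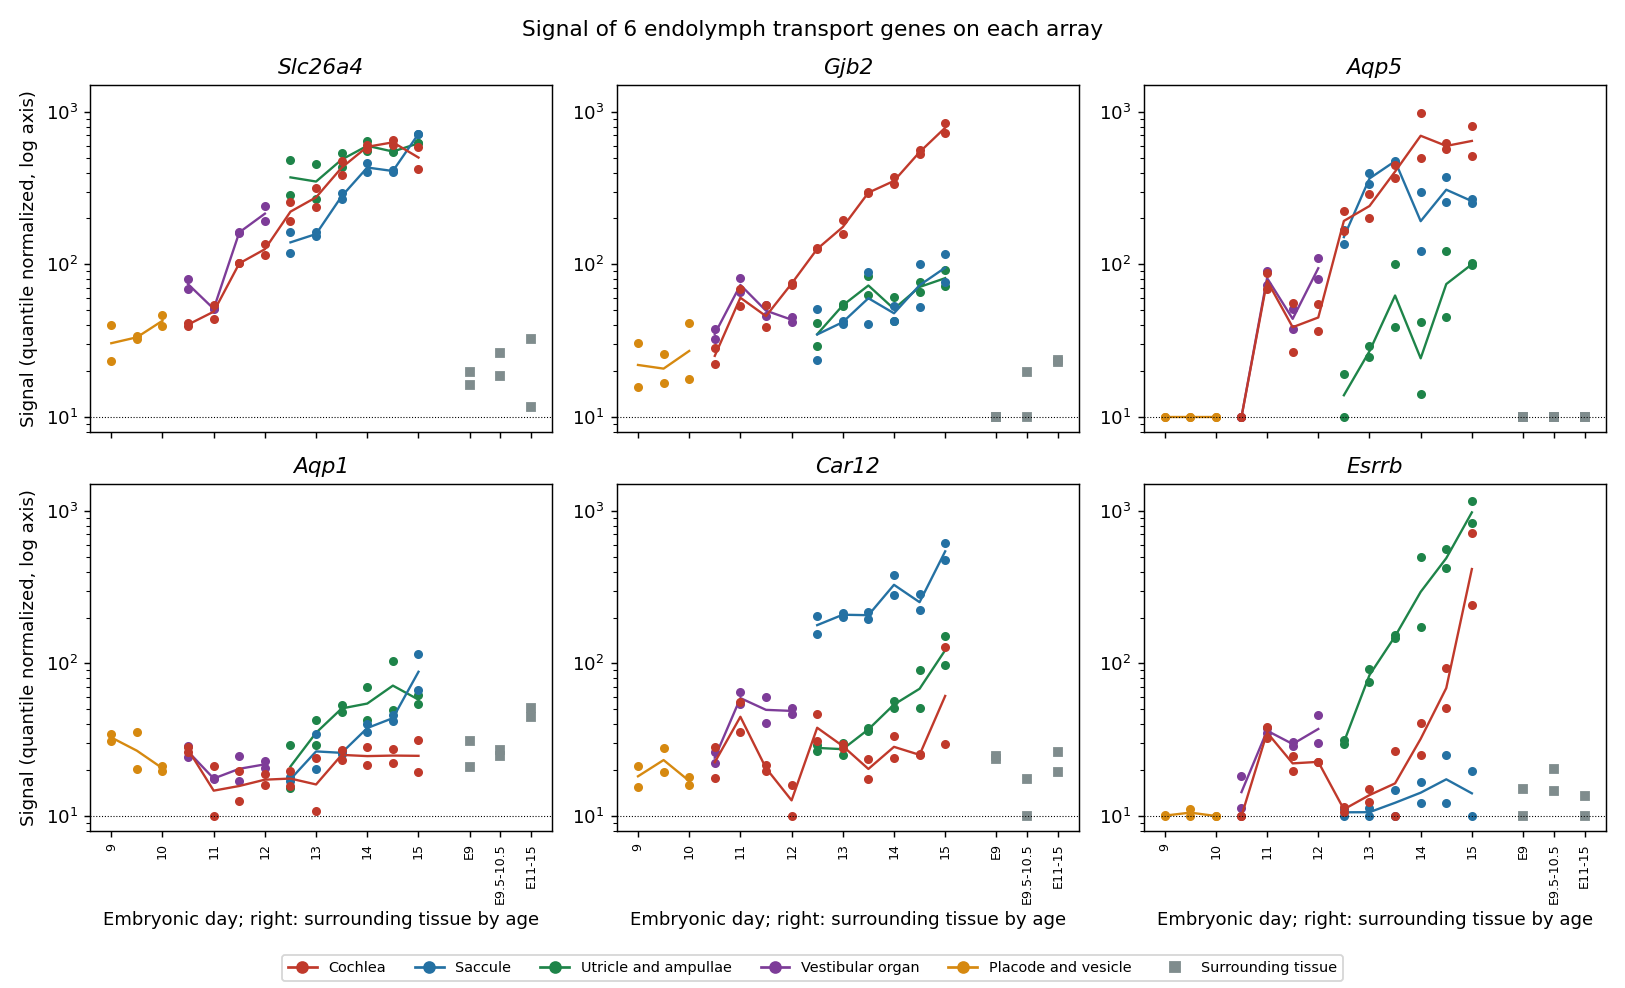
Signal of the 6 genes on each array (log axis, quantile normalized) by embryonic day, with surrounding tissue at the right of each panel and the dotted line at the deposited minimum of 10; Esrrb is shown by probe set 1436926_at. Points are arrays and lines join the geometric means of the 2 arrays. Gjb2 is highest in the cochlea, at 849 and 728 at E15, Car12 is highest in the saccule at 479 and 614, and Esrrb in the utricle at 1150 and 828.

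Gjb2 encodes connexin 26, a gap junction subunit of the supporting cells of the cochlea, and its 6 highest groups were the cochlea at E12.5 and later. Cochlear signal was 22.3 and 28.4 at E10.5, 54 and 38.8 at E11.5, 125 and 127 at E12.5, 157 and 196 at E13, 296 and 294 at E13.5, 334 and 372 at E14, 559 and 530 at E14.5 and 849 and 728 at E15. From E12.5 on, both arrays of each cochlear stage lay above both arrays of the stage before it. The cochlear trend was a rise of 4.22 ± 0.18 log2 (limma adjusted p = 1.4e-21), and signal at E15 was 31.3-fold that at E10.5. The other organs stayed far lower. The saccule read from 23.5 to 117 over its 12 arrays, with a median of 52.1, and the utricle from 29.3 to 91.4, with a median of 62.4. The cochlear arrays from E12.5 on ran from 125 to 849, so they overlapped with neither.

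Averaged over E12.5 to E15, Gjb2 was higher in the cochlea than in the utricle by 2.15 ± 0.11 log2 (limma adjusted p = 6.33e-20) and higher than in the saccule by 2.20 ± 0.11 log2 (limma adjusted p = 3.81e-20). In each of these comparisons 3 of the 6 probe sets were called, against 2.82% of all probe sets for cochlea and utricle and 3.73% for cochlea and saccule. The distance widened with age: the cochlear trend from E12.5 to E15 exceeded the utricular one by 1.74 log2 (limma adjusted p = 0.000214) and the saccular one by 1.45 log2 (limma adjusted p = 0.00127). In these differences in trend 2 of the 6 probe sets were called for cochlea and utricle and 4 for cochlea and saccule, against 3.94% and 4.75% of all. The saccule minus utricle difference in level was -0.05 log2 (95% interval -0.27 to 0.16). Gjb2 also rose within the saccule, by 1.03 ± 0.22 log2 (limma adjusted p = 0.000362), a call that was lost when any of 4 single arrays was left out (replicate 1 at E12.5 or E14.5, replicate 2 at E13.5 or E15), with trends of 0.75 to 0.96. In the utricle the trend of 0.74 ± 0.22 log2 was under the size needed for a call. Periotic mesenchyme markers also varied between the organs: their 6 measured members summed to between 2078 and 5651 in the cochlea from E12.5 on, between 407.4 and 1056 in the saccule and between 742.9 and 2443 in the utricle, chiefly through Lum, with a mean signal of 4580 in the cochlea at E15. Within the cochlea the sums went from 468.7 and 313.5 at E10.5 to 4363 and 5651 at E15, stages over which Gjb2 also rose. At E12.5 the sums were 2078 and 2083 in the cochlea and 2443 and 2028 in the utricle. Gjb2 at that stage read 125 and 127 in the cochlea and 29.3 and 41.4 in the utricle. By E15 the utricular sums were 954.2 and 1001, far under the cochlear ones. The part of these cells in the cochlear values was not tested.

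Aqp5 and Aqp1 encode water channels of the plasma membrane, and they differed in where and when they were detected. Aqp5 was at the deposited minimum of 10 on both arrays of the placode, of both vesicle stages, of the cochlea and the vestibular organ at E10.5 and of all 3 surrounding tissue groups. In the cochlea it then read 69 and 88.4 at E11, 26.8 and 56 at E11.5, 36.5 and 55.2 at E12, 223 and 167 at E12.5, 366 and 450 at E13.5, 497 and 976 at E14 and 514 and 807 at E15. In the vestibular organ it read 73.6 and 90 at E11, 37.7 and 51.2 at E11.5 and 111 and 80.4 at E12. Both organs thus went from the minimum at E10.5 to a measured signal at E11, and their E11 arrays lay above their E11.5 arrays. Against the minimum, Aqp5 was at least 64.4-fold higher in the cochlea at E15 than at E10.5 and at least 9.44-fold higher in the vestibular organ at E12 than at E10.5. The fitted trends, whose size depends on the minimum and on the 16 added before the logarithm, were rises of 4.80 ± 0.24 log2 in the cochlea (limma adjusted p = 1.47e-19) and 1.67 ± 0.32 log2 in the vestibular organ (limma adjusted p = 0.000304). All standard errors and p-values of Aqp5 use a spread pooled over the 32 groups, 0.362 log2. Groups at the minimum on both arrays enter it with an SD of 0. The utricular SDs were 0.67 to 0.83 at E13.5, E14 and E14.5 and 0.02 to 0.31 at its other stages, so the errors may be too small there.

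From E12.5 on, Aqp5 was high in the cochlea and the saccule and low in the utricle. The saccule had read 136 and 168 at E12.5, 336 and 397 at E13, 479 and 470 at E13.5, 123 and 299 at E14, 373 and 255 at E14.5 and 251 and 268 at E15. The utricle read from 10 to 122 over its 12 arrays, with 1 array at the minimum, and at E15 read 102 and 98.8. Averaged over these stages, Aqp5 was higher in the cochlea than in the utricle by 2.85 ± 0.14 log2 (limma adjusted p = 5.21e-20) and higher in the saccule than in the utricle by 2.27 ± 0.14 log2 (limma adjusted p = 9.31e-17). The last comparison called 3 of the 6 probe sets, against 2.56% of all. Cochlea minus saccule was 0.58 ± 0.14 log2 (limma adjusted p = 0.000617), under the size needed for a call, but the 2 organs parted with age: the saccular trend was 0.24 ± 0.29 log2 and the cochlear trend from E12.5 to E15 exceeded it by 1.59 log2 (limma adjusted p = 0.00771). Aqp5 rose in the utricle by 1.72 ± 0.29 log2 (limma adjusted p = 1.46e-05), more than in the saccule by a difference of -1.48 log2 for saccule minus utricle (limma adjusted p = 0.0318). That difference was not called without the filter on low signals (adjusted p = 0.0512), with array weights (adjusted p = 0.123), with only the saccular and utricular groups in the fit (adjusted p = 0.187), or without any 1 of 8 single arrays (adjusted p up to 0.108).

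Aqp1 was low everywhere. In the cochlea it read from 10.8 to 31.5 on the 12 arrays from E12.5 on, and its cochlear trend from E10.5 was 0.26 ± 0.18 log2 (limma adjusted p = 0.215). In the saccule it read 18 and 16.8 at E12.5, 26.5 and 25.4 at E13.5, 46 and 41.8 at E14.5 and 67 and 116 at E15, and in the utricle 15.2 and 29.3 at E12.5, 53.5 and 48 at E13.5, 104 and 49.3 at E14.5 and 62.2 and 54 at E15. It rose by 1.43 ± 0.21 log2 in the saccule (limma adjusted p = 1.35e-06) and by 1.05 ± 0.21 log2 in the utricle (limma adjusted p = 0.000219). Aqp1 passed the filter through 2 arrays only, 104 in the utricle at E14.5 and 116 in the saccule at E15. Both lie late in these trends, so the filter favoured a rise, and the p-values do not allow for that. The utricular call was lost without replicate 1 at E12.5, E13, E14.5 or E15, with trends of 0.85 to 0.99. Averaged over these stages, cochlea minus utricle was -0.71 ± 0.10 log2 (limma adjusted p = 5.22e-07), which with a pseudocount of 1 was -1.02 and was called. Surrounding tissue pooled from E11 to E15 read 51 and 44.2, which is above every cochlear array, and the inner ear minus surrounding tissue difference at this age was -0.53 ± 0.18 log2 (limma adjusted p = 0.0126), not called. Red blood cells and blood vessels are known to carry Aqp1. The 6 red blood cell markers summed to between 2010 and 11570 in the saccule, between 871.8 and 4286 in the utricle, between 1105 and 3804 in the cochlea from E12.5 on and between 5114 and 16290 in the surrounding tissue, and of these markers 1 rose and 3 fell in the saccular trend and 1 rose and 2 fell in the utricular one. The 6 endothelial markers summed to between 486 and 727.6 in the saccule, between 382.3 and 809 in the utricle, between 360.9 and 495.7 in the cochlea from E12.5 on and between 1239 and 1551 in the surrounding tissue. In the utricle their sums were 492.4 and 540.8 at E12.5 and 786.5 and 809 at E15, so they rose there along with Aqp1. In the saccule they were 727.6 and 596.7 at E12.5 and 486 and 625.5 at E15. The part of either in the Aqp1 values was not tested.

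Car12 encodes a membrane-bound carbonic anhydrase, an enzyme that interconverts carbon dioxide and bicarbonate at the cell surface, and its 6 highest groups were the 6 stages of the saccule. Saccular signal was 155 and 205 at E12.5, 203 and 215 at E13, 196 and 218 at E13.5, 281 and 381 at E14, 223 and 284 at E14.5 and 479 and 614 at E15. Utricular signal was 29.3 and 26.7 at E12.5, 36.3 and 37.7 at E13.5, 90.9 and 51.2 at E14.5 and 152 and 98.4 at E15, so no utricular array reached the lowest saccular one. The cochlea stayed at 17.5 to 46.5 from E12.5 to E14.5, and at E15 its arrays read 127 and 29.5. Averaged over E12.5 to E15, Car12 was higher in the saccule than in the utricle by 2.09 ± 0.12 log2 (limma adjusted p = 4.21e-18), and it was lower in the cochlea than in the saccule, at -2.54 ± 0.12 log2 (limma adjusted p = 8.27e-21).

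Car12 rose in both vestibular sensory organs. The saccular trend was a rise of 1.29 ± 0.24 log2 (limma adjusted p = 6.36e-05), with signal at E15 3.04-fold that at E12.5, and the utricular one a rise of 1.65 ± 0.24 log2 (limma adjusted p = 1.35e-06). In each of these trends 4 of the 6 probe sets were called, all upward, against 7% of all called and 4.34% called upward in the saccule, and 7.46% and 4.62% in the utricle. Aqp1, which passed the filter through 1 late array of each of these organs, is among the 4 in both. The cochlear trend was 0.42 ± 0.20 log2 (limma adjusted p = 0.0721), and it turned on the last stage: it was 0.01 log2 without replicate 1 at E15 and 0.83 log2 without replicate 2. The cochlear trend from E12.5 was lower than the utricular one by a difference of -1.25 log2 (limma adjusted p = 0.0168), which was not called without cochlear replicate 2 at E15 (-0.66 log2, adjusted p = 0.23), without cochlear replicate 2 at E12.5 (adjusted p = 0.0736), without utricular replicate 1 at E15 (adjusted p = 0.0957) or with only the groups compared in the fit (adjusted p = 0.102). From E10.5 to E12, cochlea minus vestibular organ was -0.59 ± 0.14 log2 (limma adjusted p = 0.00196), under the size needed for a call, with cochlear arrays of 16 and 10 at E12 and vestibular arrays of 46.7 and 51.1. The arrays of the 2 organs overlapped at E10.5 (17.8 and 28.5 against 26.1 and 22.2) and at E11 (56.2 and 35.5 against 64.6 and 54.4).

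Esrrb encodes an orphan nuclear receptor that, in mice, is needed by the endolymph-secreting cells of the cochlea and the vestibular organs. Its probe set 1436926_at read between 10 and 11.1 on all arrays of the placode, the vesicle and the cochlea at E10.5. The saccule read from 10 to 25 over its 12 arrays. The utricle read 31.5 and 29.4 at E12.5, 75.9 and 92.6 at E13, 154 and 147 at E13.5, 174 and 497 at E14, 564 and 425 at E14.5 and 1150 and 828 at E15. Not 1 utricular array overlapped with a saccular one, and the saccule minus utricle difference was -2.93 ± 0.13 log2 (limma adjusted p = 4.47e-21). The saccular trend was 0.31 ± 0.27 log2 (limma adjusted p = 0.435). The utricular trend was a rise of 4.29 ± 0.27 log2 (limma adjusted p = 2.29e-15), with signal at E15 32.1-fold that at E12.5, and saccular minus utricular trend was -3.98 log2 (limma adjusted p = 2.36e-09). Esrrb passed the filter only through 9 utricular arrays from E13 on and 3 cochlear arrays at E14.5 and E15. The filter thus favoured a rise in these 2 organs and a difference from the saccule, and the p-values do not allow for that. Hair cell markers rose in both organs: 5 of 5 in the saccular trend and 4 of 5 in the utricular one, with sums between 317.6 and 4879 in the saccule and between 263.9 and 2982 in the utricle. Other cell types' markers moved in the utricle too. At E15 and at E12.5 the 4 cartilage markers summed to 15470 and 14280 against 3749 and 4122, the 6 ganglion neuron markers to 5863 and 5752 against 2364 and 3331, and the 4 macrophage markers to 1096 and 1551 against 432.8 and 466.9. The 7 epithelial markers summed to 7193 and 6804 against 4356 and 5826. Periotic mesenchyme went the other way, its 6 markers summing to 954.2 and 1001 against 2443 and 2028. In the utricular trend 2 of 4 cartilage markers rose, 2 of 6 neuron markers rose and 1 fell, and 1 of 4 macrophage markers rose. The part of these cells in the Esrrb values was not tested.

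In the cochlea Esrrb stayed low until E14. Cochlear signal was 38.5 and 32.3 at E11, 22.5 and 22.7 at E12, 11.4 and 10.7 at E12.5, 26.8 and 10 at E13.5, 25.3 and 40.7 at E14, 93.7 and 50.7 at E14.5 and 714 and 242 at E15. Both cochlear arrays stood above every surrounding tissue array at E11, at E12 and from E14 on, and both utricular arrays did so at each stage. The cochlear trend was a rise of 2.34 ± 0.23 log2 (limma adjusted p = 2.84e-11), and signal at E15 was at least 41.6-fold higher than the minimum at which both E10.5 arrays lay. The cochlea minus utricle difference in level was -1.88 ± 0.13 log2 (limma adjusted p = 4.73e-15). The cochlea minus saccule difference was 1.04 ± 0.13 log2 (limma adjusted p = 1.98e-08), which was 0.92 without cochlear replicate 1 at E15 and also under 1 without replicate 1 of the cochlea at E13.5 or E14.5 or of the saccule at E14.5. From E12.5 to E15 the cochlear trend exceeded the saccular one by 3.28 log2 (limma adjusted p = 7.48e-08). It did not differ from the utricular trend at the threshold (-0.70 log2, adjusted p = 0.279), though without cochlear replicate 1 at E15 the difference was -1.24 log2 and was called (adjusted p = 0.021).

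The 2 cochlear arrays at E15 differed for several genes besides Esrrb and Car12. Replicate 1 read 1720 for Pmel and 273 for Dct, 2 markers of melanocytes, which in the cochlea settle in the stria vascularis, and replicate 2 read 482 and 115. Replicate 1 also read 119 for Kcnq1, a potassium channel subunit of the secretory cells, and 153 for Atp6v1b1, a proton pump subunit, and replicate 2 read 42.6 and 89. The 8 melanocyte and neural crest markers summed to 2685 in replicate 1 and 1592 in replicate 2, with Tyr and Tyrp1 higher in replicate 2. Replicate 1 was the higher of the 2 for Esrrb and Car12, while for Slc26a4 and Aqp5 replicate 2 was the higher. Pmel, Dct and Kcnq1 were named after their values were seen. Other marker sums differed too. Replicate 1 was higher for cartilage (9202 against 5874), epithelium (8685 against 6821) and macrophages (942.9 against 609.4). It was also higher for hair cells (637 against 492) and ganglion neurons (2441 against 2183). Replicate 2 was higher for periotic mesenchyme (5651 against 4363), red blood cells (3624 against 2776) and endothelium (414.8 against 395.8). The part of the dissection or of the age of the embryos in this gap was not tested.

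The second Esrrb probe set, 1422986_at, showed none of this pattern. It read from 10 to 30.1 over all 64 arrays, with a median of 17.1, and from 10 to 30.1 over the 12 utricular arrays on which 1436926_at read from 29.4 to 1150. Over the 29 inner ear group means the 2 probe sets correlated at r = -0.158, a description over groups that share organs and ages. Statements on Esrrb therefore rest on 1 probe set.

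**Figure D2:**
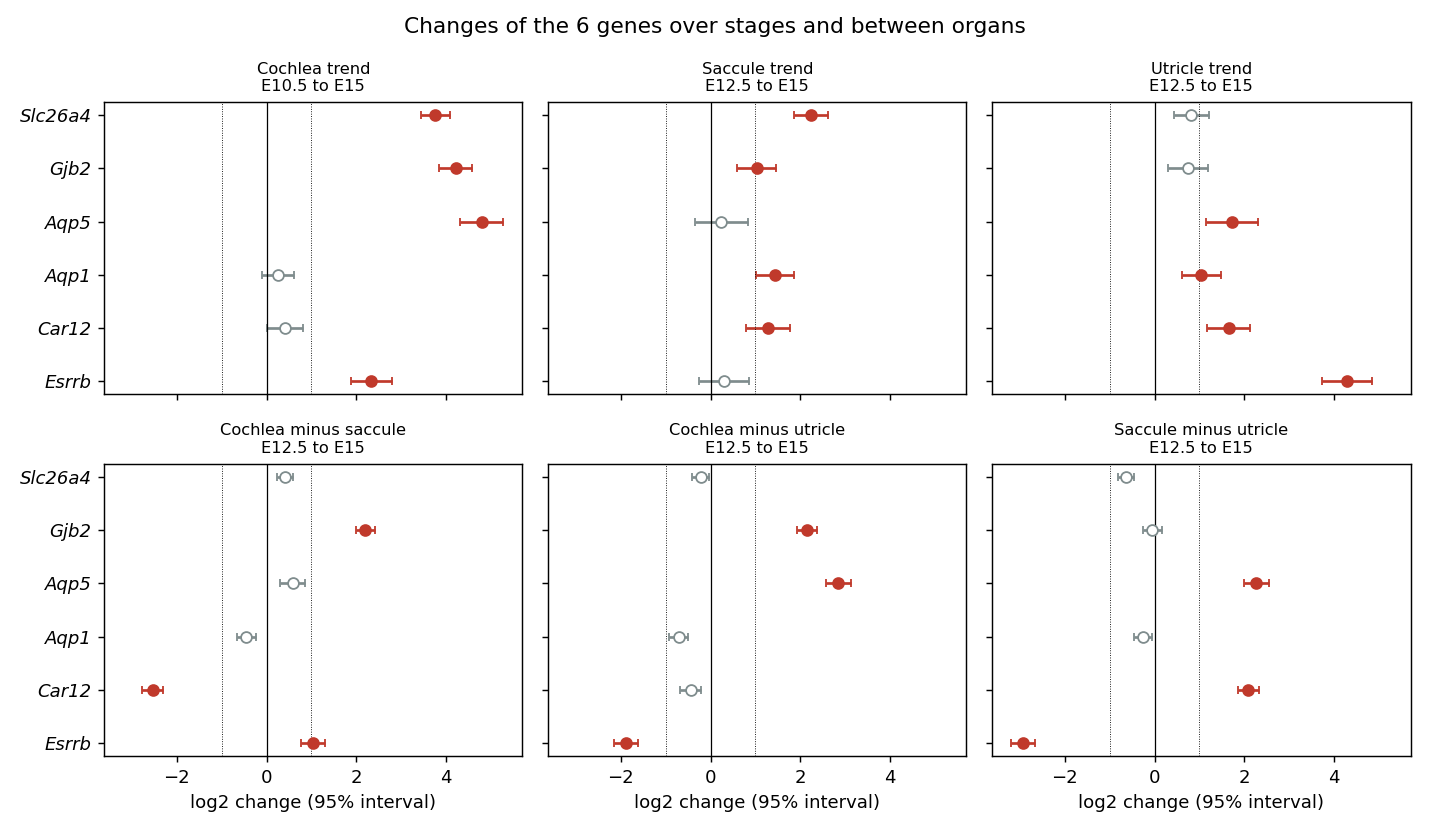
Log2 changes of the 6 genes with 95% intervals from the limma fit: upper row, trends over stages in the cochlea, the saccule and the utricle; lower row, mean differences between organs over E12.5 to E15. Filled red points are called, and dotted lines mark a change of 1 log2. Slc26a4 rises in the cochlea and the saccule with small differences between organs, while Gjb2, Aqp5, Car12 and Esrrb each differ between a pair of organs by more than 2 log2.

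**Figure D3:**
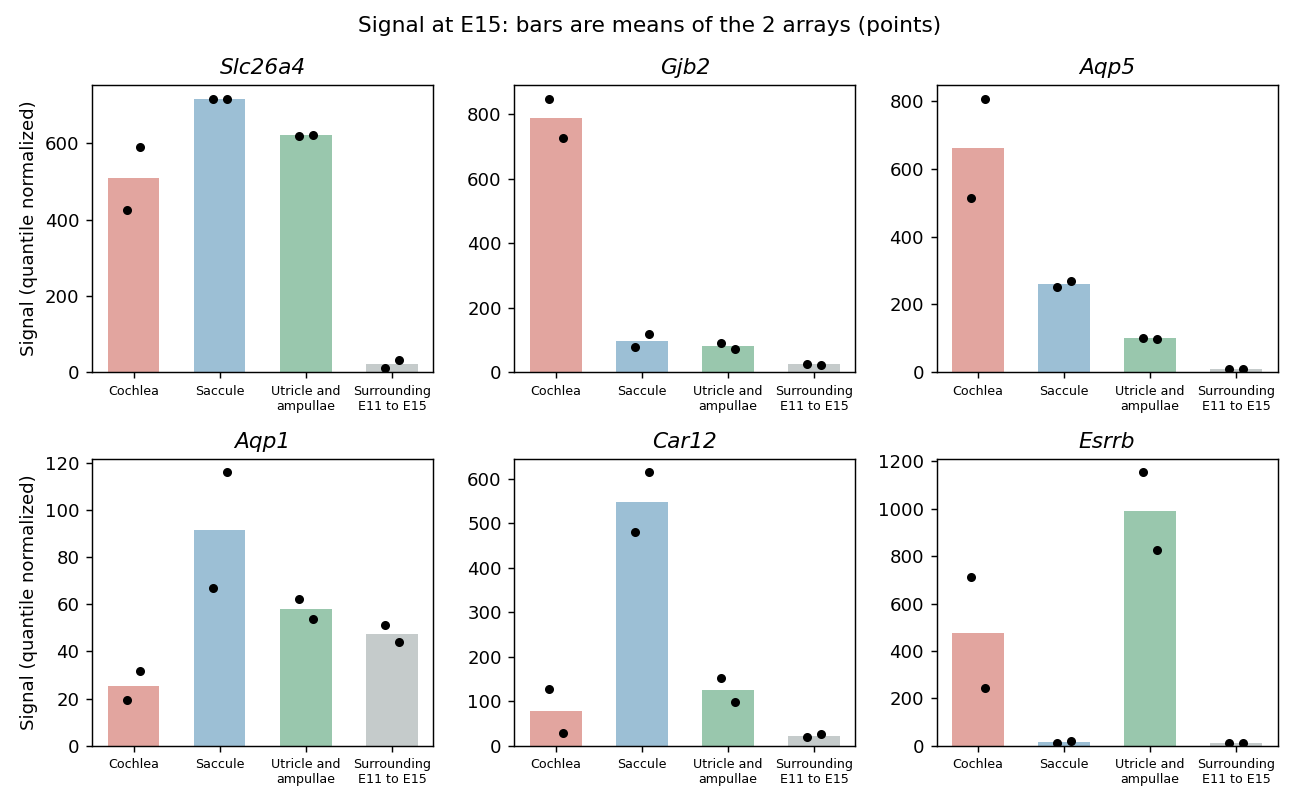
Signal at E15 in the cochlea, the saccule and the utricle with ampullae, beside surrounding tissue pooled from E11 to E15 (linear axes starting at 0, bars are means of the 2 arrays and points are the arrays). Gjb2 stands highest in the cochlea, Car12 and Aqp1 in the saccule and Esrrb in the utricle, while Slc26a4 lies between 425 and 718 in all 3 organs.

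At E15 the mean signals of Gjb2 and Aqp5 were highest in the cochlea and lowest in the utricle, those of Slc26a4, Car12 and Aqp1 were highest in the saccule and lowest in the cochlea, and that of Esrrb was highest in the utricle and lowest in the saccule. Gjb2 signal in the cochlea was 9.68-fold that in the utricle and 8.27-fold that in the saccule. Car12 signal in the saccule was 8.86-fold that in the cochlea and 4.44-fold that in the utricle. The cochlear value rests on arrays of 127 and 29.5, and the fold was 4.27 against the first alone and 18.4 against the second. Esrrb signal in the utricle was 2.35-fold that in the cochlea, whose lower array of 242 and upper array of 714 both lay under the utricular pair, and the fold was 1.37 against the upper array alone and 4.04 against the lower. In the saccule Esrrb read 10 and 19.8, within the range of the surrounding tissue arrays, so no fold is given against it. Ordered by level over all 32 groups, most neighbouring groups overlapped: 24 of 31 neighbouring pairs for Slc26a4, 25 for Gjb2 and for Car12, 26 for Esrrb, 28 for Aqp5 and 29 for Aqp1. The steps that stood apart for Gjb2 included the first 5, from the cochlea at E15 down to the cochlea at E12.5.

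Against the surrounding tissue, calls among the 6 genes came at the latest of the 3 ages. Whether the differences changed with age was not tested. At E9 none of the 6 probe sets was called in the placode against surrounding tissue (6.04% of all were), and 2, Slc26a4 and Gjb2, had an unadjusted p under 0.05. From E9.5 to E10.5 none was called (7.94% of all were), and again 2 had an unadjusted p under 0.05, of which Slc26a4 was 0.63 ± 0.18 log2 higher (limma adjusted p = 0.00599). From E11 to E15, 5 of the 6 were called, all higher in the inner ear, where 15.3% of all probe sets were called and 8.28% were called higher. Slc26a4 was higher by 2.89 ± 0.16 log2 (limma adjusted p = 5.15e-18), with a lowest inner ear array of 44 and surrounding arrays of 11.7 and 32.6. Aqp5 was higher by 2.46 ± 0.25 log2 (limma adjusted p = 6.96e-11), and Gjb2 by 1.38 ± 0.19 log2 (limma adjusted p = 6.9e-08). Esrrb was higher by 1.18 ± 0.23 log2 (limma adjusted p = 5e-05), although its saccular arrays, at 10 to 25, overlapped with those of the surrounding tissue. Its cochlear arrays overlapped with them too at E12.5 (11.4 and 10.7), E13 (15.1 and 12.4) and E13.5 (26.8 and 10). Car12 was higher by 1.03 ± 0.21 log2 (limma adjusted p = 5.82e-05), a value that was 0.90 without replicate 1 of the surrounding tissue, 0.98 without the E14 arrays and 1.00 without cochlear replicate 1 at E15, each time under the size needed for a call. Of the 20 cochlear arrays, those at E10.5 included, only 10 lay above the highest Car12 signal of the surrounding tissue, 26.2. Between the vesicle at E10 and the placode at E9 none of the 6 was called or had an unadjusted p under 0.05, where 5.51% of all probe sets were called.

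The E11 arrays stood apart in the share of values at the minimum, which was 12.04 and 11.35% for the cochlea and 9.975 and 9.807% for the vestibular organ, above every other array. In the cochlea, both E11 arrays lay above both E10.5 arrays and both E11.5 arrays for Aqp5 and Esrrb. For Car12 both cochlear E11 arrays, 56.2 and 35.5, also lay above those at E10.5 and E11.5, and for Gjb2 the E11 arrays, 68.9 and 53.1, lay above those at E10.5 and overlapped with those at E11.5. Without the E11 arrays the cochlear trends of the 4 genes that rose were as large or nearly so: 3.59 log2 for Slc26a4, 4.45 for Gjb2, 5.24 for Aqp5 and 2.82 for Esrrb.

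A list of 37 other genes of endolymph transport gave 22 genes with a tested probe set. In the cochlear trend 3 rose and 1 fell, 4 of 22 where 15.3% of all probe sets were called, and the median of the 22 was 0.30 log2, against 0.01 over all probe sets. Atp1b1, a subunit of the sodium and potassium pump, read 1640 and 1780 in the cochlea at E15 and 453 and 563 at E10.5 and rose by 1.60 ± 0.19 log2 (limma adjusted p = 3.13e-09). Slc12a2, the sodium, potassium and chloride cotransporter of secretory cells, rose by 1.17 ± 0.14 log2 (limma adjusted p = 2.9e-09), and Atp6v1b1 by 1.87 ± 0.17 log2 (limma adjusted p = 4.39e-12). Car14, another membrane-bound carbonic anhydrase, went the other way, with 83.1 and 90.8 at E15 and 554 and 644 at E10.5, and fell by 2.58 log2 (limma adjusted p = 1.58e-21). In the saccular trend 3 rose and none fell, where 7% of all probe sets were called: Atp1b1 (1.63 log2), Atp6v1b1 (1.66 log2) and Kcnj10, a potassium channel (1.17 log2). In the utricular trend, where 7.46% of all were called, limma called none of the 22. There 8 had an unadjusted p under 0.05, of which 5 also had an adjusted p under 0.05 with a change under 1 log2. In the earlier vestibular trend (4.11% of all) none was called. There 5 had an unadjusted p under 0.05, of which 4 also had an adjusted p under 0.05 with a change under 1 log2.

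**Figure D4:**
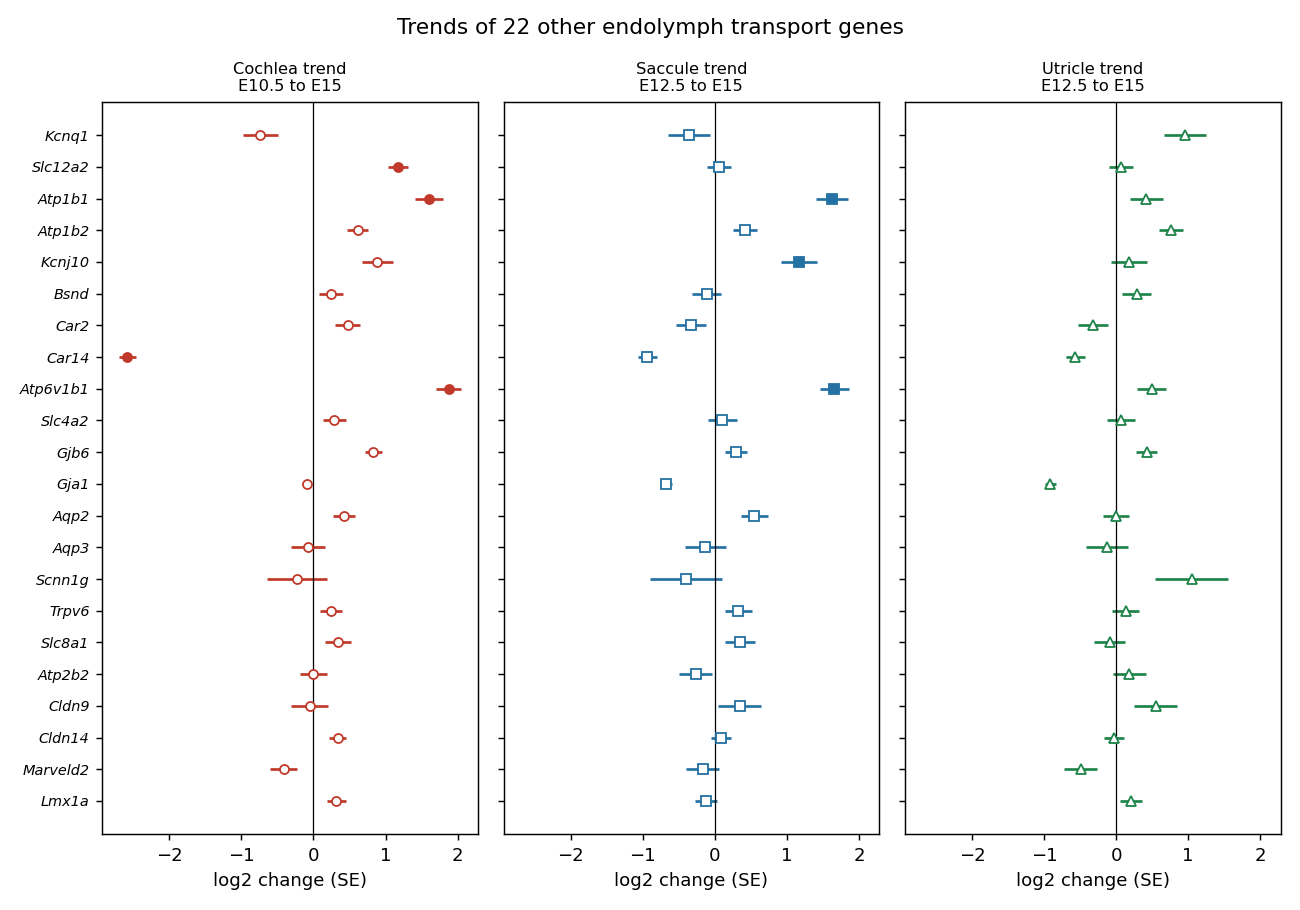
Log2 trends of the 22 other transport genes with a tested probe set in the cochlea (E10.5 to E15), the saccule and the utricle (E12.5 to E15); bars are standard errors and filled points are called. Calls are few: Slc12a2, Atp1b1 and Atp6v1b1 up and Car14 down in the cochlea, Atp1b1, Kcnj10 and Atp6v1b1 up in the saccule and none in the utricle.

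Between organs over E12.5 to E15, 1 of the 22 was called in each comparison, where 2.56 to 3.73% of all probe sets were. Atp1b1 was higher in the cochlea than in the utricle by 1.52 ± 0.11 log2 (limma adjusted p = 1.13e-14). Car2, a cytosolic carbonic anhydrase, was higher in the cochlea than in the saccule by 1.02 ± 0.10 log2 (limma adjusted p = 4.66e-11), the opposite direction to Car12. Atp2b2, a calcium pump, was higher in the saccule than in the utricle by 1.14 ± 0.11 log2 (limma adjusted p = 5.84e-11). Gjb6, the connexin 30 partner of Gjb2, read 113 and 119 in the cochlea, 70.7 and 85.9 in the saccule and 93.3 and 101 in the utricle at E15, and was called in none of these comparisons. The cochlear trend from E12.5 exceeded the utricular one for Slc12a2 (1.44 log2) and Atp6v1b1 (1.52 log2) and the saccular one for Slc12a2 (1.45 log2), each a called difference. Against surrounding tissue, Marveld2, a tight junction protein, was called higher in the inner ear at all 3 ages, by 2.08 ± 0.27 log2 at E9, 3.60 ± 0.21 log2 from E9.5 to E10.5 and 4.09 ± 0.19 log2 from E11 to E15. Car2 was higher in the placode at E9 by 1.98 ± 0.25 log2 (limma adjusted p = 1.13e-07), with 1790 and 1430 in the placode and 410 and 380 in the surrounding tissue. Of the 22, 2 were called higher at E9, 5 from E9.5 to E10.5 and 2 from E11 to E15, and none was called lower at any of these ages, where 6.04%, 7.94% and 15.3% of all probe sets were called in either direction.

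Over the 29 inner ear group means the 6 genes shared their course in pairs only in part. The highest correlation was between Gjb2 and Aqp5 (r = 0.766), and Gjb2 and Car12 (r = -0.0443) and Car12 and Esrrb (r = 0.0193) were near 0. Other genes were closer to each member than the members were to each other. Slc26a4 was nearest to Clec4b1 (r = 0.946), Nfib (0.932) and Slc25a45 (0.928), all highest in the utricle at E14 or E15. Gjb2 was nearest to Celf2 (0.931), Ebf1 (0.927) and Ecel1 (0.902), all highest in the cochlea at E14.5 or E15. Aqp5 was nearest to Snx22 (0.907), Mx2 (0.899) and Rb1 (0.892), and Aqp1 to Tctex1d1 (0.913), Dnajb13 (0.891) and St3gal5 (0.867). Car12 was nearest to Smoc1 (0.942), Adhfe1 (0.934) and Tacr3 (0.926), all highest in the saccule at E14 or E15. Esrrb was nearest to Enpep (0.936), Grik1 (0.925) and Galnt10 (0.896), all highest in the utricle at E15. These are Pearson correlations of log2 means over 29 groups that share organs and ages, the nearest of many genes, and they describe likeness of pattern alone.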

How the data were processed

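Each deposited value is an intensity of 1 probe set. The submitters' processing notes name MAS5, and neither version nor scaling is given in the sources used here. From them the 64 arrays were quantile normalized, 16 was added and log2 taken. Probe sets at or above the array median on at least 2 arrays were kept, 15337 of 22626. Of all probe sets, 20380 have 1 gene symbol in the platform annotation, 691 several and 1555 none. Tests used limma 3.58.1 in R 4.3.3, in a single fit with 1 coefficient for each of the 32 groups (32 residual degrees of freedom) and a variance trend. Each of 15 comparisons gave two-sided p-values, with Benjamini-Hochberg adjustment across the 15337 probe sets. A call needs an adjusted p under 0.05 and a change of at least 1 log2. Replicates of a group correlated at 0.9416 to 0.9913 across probe sets. The number of arrays, 2 a group, limits the precision.

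Window differences average stages with equal weight. Trends are least-squares slopes over group means times the days spanned. Folds between groups are ratios of geometric means of signal, and a fold against a group at the minimum of 10 is given as at least that value. Genes named beside the 6 are those of the list of 37 called in a comparison described, and the 3 nearest by correlation; Gjb6, Kcnq1, Pmel, Dct, Tyr, Tyrp1 and Lum were named after their values were seen. The 6 genes and all lists were chosen with earlier results of these data known. Each measured gene of the transport and marker lists is represented by 1 probe set, also where the array has several. Promoters come from RefSeq (GRCm38.p6) and match by symbol for all 6 genes. The procedure was tested on simulated data for the difference in level between cochlea and saccule alone. No trend, difference in trend or comparison with surrounding tissue was simulated. Alternatives tried were pseudocounts of 1 and 64, dropping the filter or raising it to 16 arrays, the scale as deposited, 1 probe set a gene, array weights, only the groups compared, the replicate number as a block, and leaving out arrays.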

Additional observations from a re-analysis of the deposited data

Results flagged for a closer look

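In 9 cases a gene's trend from E12.5 to E15 differed between organs by the test of the difference itself, in the limma fit. For cochlea minus utricle with ampullae these were Gjb2, at 1.736 log2, and Car12, at -1.251 log2. For cochlea minus saccule they were Gjb2, at 1.454 log2, Aqp1, at -1.092 log2 (adjusted p = 0.0133), Aqp5, at 1.59 log2, and Esrrb, at 3.282 log2. For saccule minus utricle with ampullae they were Slc26a4, at 1.413 log2, Aqp5, at -1.48 log2, and Esrrb, at -3.981 log2. Of all probe sets, 3.94%, 4.75% and 1.93% were called in these comparisons. The Aqp1 difference was not called without cochlear replicate 2 at E13 or 1 at E15, or without saccular replicate 1 at E13 or 2 at E15, with values of -0.99 to -0.85. Aqp1 passed the filter through 2 arrays, of which 1 was of the saccule at E15, the late end of the saccular trend. Esrrb passed it through utricular and late cochlear arrays only, the organs that rose more in its differences. The Aqp5 difference for saccule minus utricle lost its call under 12 of 35 alternatives, and the Car12 difference for cochlea minus utricle under 5 of 35. The 3 comparisons share arrays, so they are not independent.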

How the results depend on the processing

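Of 2592 values of single genes under alternatives, 2536 kept their direction and their side of the threshold, 47 lost a call, 9 gained one and none reversed. The number of the 6 genes called moved by more than 1.5 times as follows. With a pseudocount of 64 it was 2 against 5 for inner ear and surrounding tissue from E11 to E15, 1 against 2 in the vestibular trend, 1 against 4 in the utricular trend and 2 against 4 in the saccular trend, since adding more shrinks the change of low signals. With a pseudocount of 1 it was 1 against 0 at E9 (Gjb2). With a filter of 16 arrays, which leaves out Aqp1 and Esrrb, it was 2 against 4 in the utricular trend and 2 against 4 in the cochlea minus saccule difference in trend. For the cochlea minus utricle difference in trend it was 1 against 2 with only the groups compared in the fit, and 1 to 3 over the arrays left out in turn. Over arrays left out, Slc26a4 crossed the threshold in the cochlea minus saccule difference in trend (-0.88 log2), at -1.01 to -1.04 without cochlear replicate 1 at E12.5 or 2 at E15 or saccular replicate 2 at E12.5, and Car12 did so in the same comparison at -1.48 without cochlear replicate 1 at E15. Same-stage arrays with the same replicate number correlated at -0.496 to 0.57 in their deviations, over 0.1 in 19 of 23 pairs. From E12.5 to E14.5 all 15 pairs were over 0.1 (0.14 to 0.57), and in 8 of 12 sets of 1 stage and 1 number from E12.5 to E15 the pools of the 3 organs held the same number of tissues, so organs of the same number may share embryos. The labels do not state this, and 4 pairs, 2 of them with the saccule at E15, were not over 0.1, so the fit without the block was kept. With a replicate block, by number or, between organs, by stage and number, no call of a gene changed; the cochlear trend, for one, called 4.

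Counts over all probe sets moved by more than 1.5 times with a pseudocount of 64 in all 15 comparisons (for example 1477 against 2350 for inner ear and surrounding tissue from E11 to E15, and 1486 against 2348 in the cochlear trend) and with 1 probe set a gene in 14, where fewer features are tested (1460 and 1398 for the same comparisons). As deposited, 1782 against 927 were called at E9 and 322 against 198 for cochlea and vestibular organ; with a pseudocount of 1 the last was 331. With only the groups compared, 467 against 845 were called for vesicle and placode and 166 against 296 for the saccule minus utricle difference in trend. That count was 570 without utricular replicate 2 and 464 without saccular replicate 1 at E12.5, and the 604 of the cochlea minus utricle difference in trend became 994 and 384 without cochlear replicates 1 and 2 at E15, and 381 and 1054 without utricular replicates 1 and 2 at E12.5. Values as deposited also moved the share of calls that were higher: 89.4% against 49.6% at E9, 76.5% against 45.5% from E9.5 to E10.5, 67.6% against 54% from E11 to E15, 61.8% against 48.3% in the cochlear trend, 68.1% against 52.5% in the vestibular trend and 12.4% against 40.9% for cochlea and vestibular organ. The median over all probe sets then lay at 0.35, 0.34, 0.14, 0.20, 0.12 and -0.26 log2 in these, and no call of the 6 genes changed. Where no cause is given, it was not tested.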
